A study of Rattus norvegicus with 48 samples.

Results

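The let-7 family of microRNAs was followed through 32 serum and 16 ulna bone small RNA libraries of WT and ZDF rats. Its members were taken by name as the 9 main (5p) arms rno-let-7a-5p, rno-let-7b-5p, rno-let-7c-5p, rno-let-7d-5p, rno-let-7e-5p, rno-let-7f-5p, rno-let-7g-5p, rno-let-7i-5p and rno-miR-98-5p, written here without the prefix, out of 763 mature rat miRNAs listed for every library, of which 629 had reads. All 9 had reads in the 16 bone libraries, and 8 of them in the 32 serum libraries. Let-7d-5p was the exception, with reads in 29 of 32 sera.

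Let-7 miRNAs are conserved regulators of developmental timing that accumulate as cells differentiate. The RNA-binding proteins LIN28A and LIN28B hold back the maturation of their precursors, and well-known targets are Hmga2, Igf2bp mRNAs, Ras genes and Lin28 itself. In mice the LIN28 and let-7 axis affects glucose metabolism, and let-7 has been linked to the differentiation of mesenchymal stromal cells into osteoblasts. A miRNA pairs with its targets mainly through its seed, bases 2 to 8 from the 5′ end, so members with one seed share most predicted targets.

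The mature sequences below, from RefSeq, are shown because the members differ by very few bases, which bears on how reads are counted among them. Capitals mark the seed.
let-7a-5p: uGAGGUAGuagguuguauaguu
let-7b-5p: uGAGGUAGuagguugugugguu
let-7c-5p: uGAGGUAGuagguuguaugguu
let-7d-5p: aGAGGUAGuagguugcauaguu
let-7e-5p: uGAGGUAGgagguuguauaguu
let-7f-5p: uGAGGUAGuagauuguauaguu
let-7g-5p: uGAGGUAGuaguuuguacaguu
let-7i-5p: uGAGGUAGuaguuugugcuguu
miR-98-5p: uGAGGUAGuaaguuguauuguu

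All 9 sequences were 22 bases long and carried the same seed. Among the 686 listed miRNAs with a sequence in the table, no other had this seed, and rno-miR-202-3p shared bases 2 to 7. Of the 36 pairs of members, 4 differed at 1 base and 10 at 2 bases. With positions counted from 1 at the 5′ end and the first-named member's base first, the single differences were A19G from let-7a to let-7c, U9G from let-7a to let-7e, G12A from let-7a to let-7f and G17A from let-7b to let-7c. These 4 pairs link let-7a, b, c, e and f, called here the 5 near-identical members. The files' mapping allowed 1 mismatch to the mature miRNA, so reads could pass between these 5 and their separate counts are uncertain. Let-7i stood 2 bases from its nearest relative let-7g (A17G, A19U), and the farthest pair, let-7d and let-7i, differed at 6 bases. Reads of 17 nt or more were kept, so a read ending before base 19 could match both let-7g and let-7i within 1 mismatch. Counts outside the 5 near-identical members can thus share short reads too. The 3p arms let-7a-1-3p and let-7c-2-3p, which have the same sequence, showed equal levels in the PTH-treated WT bones. A read that matches several members may therefore be counted in full under each. Sums and shares of the family can then hold such a read repeatedly.

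In the RefSeq annotation of the rat genome (build GRCr8, used only for chromosomes and neighbours within 10000 bases), 12 genes encode the 9 members. One let-7a gene, one let-7f gene and the let-7d gene lie together on chromosome 17. The let-7b gene and one let-7c gene are neighbours on chromosome 7, and the other let-7f gene lies beside miR-98 on chromosome X. The remaining let-7a gene neighbours miR-100 on chromosome 8, the other let-7c gene neighbours miR-99a on chromosome 11, and the let-7e gene lies with miR-99b and miR-125a on chromosome 1. Let-7g on chromosome 8 and let-7i on chromosome 7 had no miRNA gene within that distance.

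The animals were male ZDF fa/fa rats, which develop type 2 diabetes through a homozygous leptin receptor mutation, and lean ZDF +/+ rats, the WT group. All rats carried a subcritical defect of the femur midshaft, ate a high-fat, high-carbohydrate chow and were treated under the skin for 12 weeks from the age of 11 weeks. Sera came from placebo (n = 5), PTH (75 µg/kg, n = 5) and anti-sclerostin (an antibody against sclerostin, 25 mg/kg, n = 4) WT rats, and from placebo (n = 5), PTH (n = 5), anti-sclerostin (n = 4) and insulin (0.5 to 13 IU, n = 4) ZDF rats. Ulnae came from placebo- and PTH-treated rats of each genotype (n = 4 per group), and per the study 2 of the 4 bones of the ZDF PTH group were from rats that gave no serum. PTH is parathyroid hormone, given intermittently to build bone, and sclerostin is an inhibitor of bone formation. The study cites other earlier reports for the placebo rats than for the anti-sclerostin rats, though it describes ZDF rats as randomized among treatments. If these were separate experiments, anti-sclerostin and experiment cannot be told apart. For the PTH rats and for the insulin rats it cites a report that it also cites for the placebo rats. The p-values below weigh a difference between groups against the spread between libraries of a group. That spread holds differences between rats and technical variation of single libraries.

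The reads counted on miRNAs numbered 28015 to 205664 in a serum library and 41627 to 1398702 in a bone library, which was 0.529 to 4.09% and 1.58 to 21.5% of all reads. The PTH-treated WT bones held the fewest, at 1.58 to 7.23% of reads against 5.06 to 14.8% in placebo-treated WT bones, and bones 1 and 2 of that group had 54497 and 41627 miRNA reads. Whole ulnae were homogenized, and their libraries held miR-199a-3p, miR-199a-5p and miR-214-3p of mesenchyme at a summed 12682 to 43986 CPM (222 to 2196 in serum) and almost no liver miRNA (0 to 10.9 CPM, with miR-122-5p at 0 in 9 of 16). They also held the 4 striated muscle miRNAs miR-1-3p, miR-133a-3p, miR-133b-3p and miR-206-3p at a summed 47594 to 430330 CPM. Most of that sum was miR-133a-3p, at 44839 to 418784 CPM. CPM here are reads scaled to a fixed total of miRNA reads and corrected by TMM, a factor that sets the bulk of miRNAs equal between libraries. In the bone samples, a lower level can mean fewer cells of a type or less of the miRNA per cell, which cannot be told apart.

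Bone carried more of its miRNA reads on let-7 than serum did. The 9 members together took a median of 6.06% of miRNA reads over the 16 bones and 1.56% over the 32 sera. The lowest serum share was 0.750% in WT anti-sclerostin replicate 4 (355 of 47357 reads, 95% Wilson interval 0.676 to 0.831%) and the highest 3.79% in WT PTH replicate 3 (3.63 to 3.96%). In bone the extremes were 1.97% in WT PTH replicate 2 (822 of 41627 reads, 1.85 to 2.11%) and 13.2% in ZDF placebo replicate 4 (13.1 to 13.4%). These intervals cover counting error only, and reads without molecular identifiers are not independent molecules.

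One member dominated the family in serum. Let-7i-5p was the most abundant member in 32 of 32 sera and made up 47.0 to 88% of family reads (median 75%), a range that did not overlap that of any other member. Let-7f-5p (median 8.49%) and let-7g-5p (8.22%) came next and could not be ordered, since let-7f was above let-7g in 14 of 32 libraries. Let-7c-5p had a median of 2.25%, let-7b-5p 1.99%, miR-98-5p 1.66% and let-7a-5p 1.04%, and the ranges of these neighbours overlapped. Let-7e-5p (0.458%) and let-7d-5p (0.371%) were the least abundant, at a median of 6 and 5 reads per serum. Let-7d-5p had 0 reads in ZDF PTH replicate 2, ZDF anti-sclerostin replicate 4 and ZDF insulin replicate 1, which allows shares of up to 0.00376%, 0.00893% and 0.00385% of miRNA reads.

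In bone the reads were spread over more members. Let-7i-5p was again first in 13 of 16 bones but with 30.8 to 60.2% of family reads (median 46.9%), and let-7f-5p, with 17.3 to 42.3% (median 27.9%), was first in the other 3. Let-7c-5p followed at a median of 10.4%, above let-7b-5p (4.21%) in 16 of 16 bones. Let-7a-5p at 3.56%, let-7g-5p at 2.86%, miR-98-5p at 1.89% and let-7e-5p at 1.81% overlapped their neighbours, and let-7d-5p was last at 0.315%. The 5 near-identical members held 35.0 to 65.9% of family reads in bone (median 47.8%) and 5.55 to 29.8% in serum (median 13.6%), so the bone and serum ranges did not overlap. Sequencing kits capture miRNAs with unequal efficiency, so an order of members within a library is an order of reads.

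**Figure D1:**
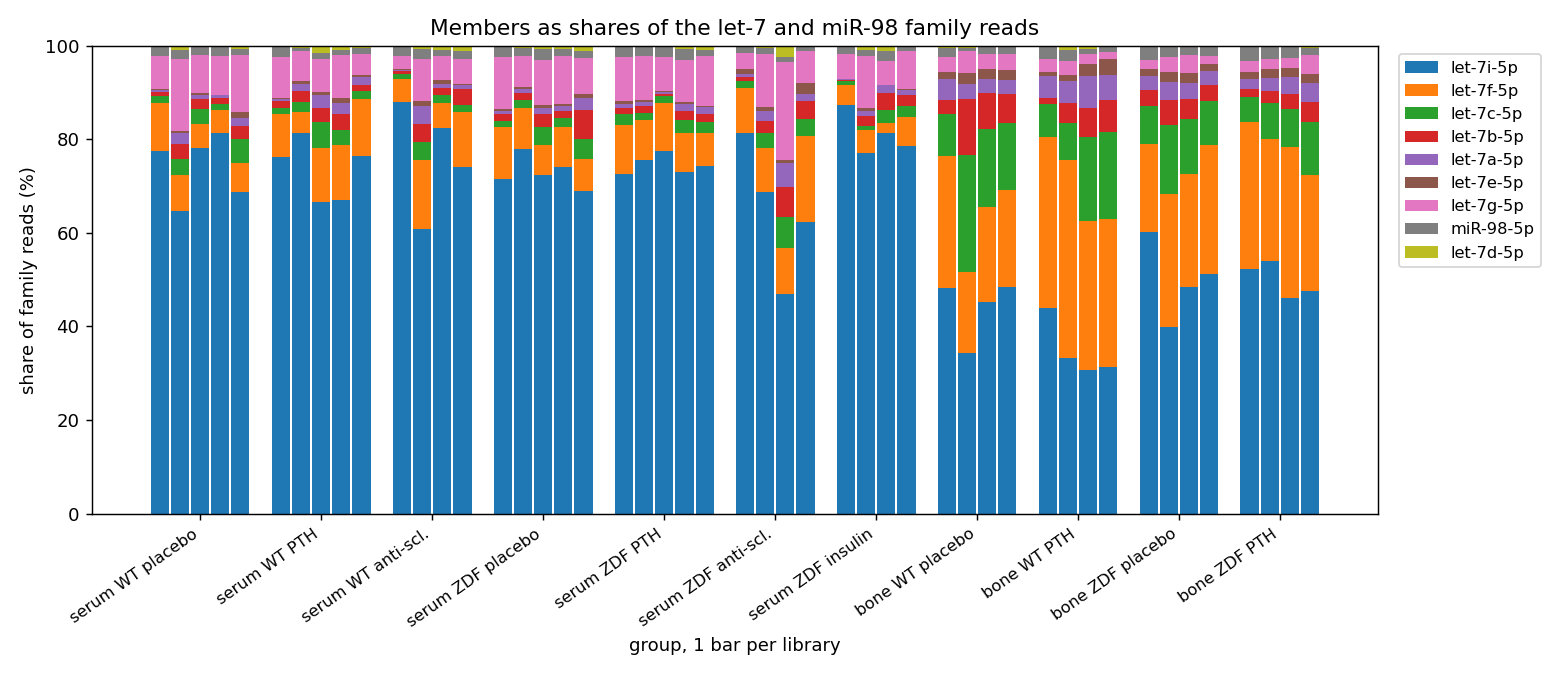
Share of family reads (%, vertical axis) taken by each of the 9 members, 1 stacked bar per library, in 11 groups. Let-7i (blue) fills 47.0 to 88% of each serum bar and 30.8 to 60.2% of each bone bar, where let-7f (orange) and let-7c (green) take more.

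The comparison of ulna and serum in placebo-treated rats showed the same split among members. Per the study the bones came from rats that also gave serum, but the labels do not link them, so the tests took as independent samples that share animals. In WT rats 8 of the 9 members were higher in bone than in serum at FDR < 0.2, the threshold of the study, where FDR is the Benjamini-Hochberg adjusted p of edgeR's quasi-likelihood test over all miRNAs tested. In ZDF rats 9 of 9 were higher. Tissue differences were common, with 80.6% of 222 miRNAs called in WT (41.9% higher in bone) and 86.1% of 202 in ZDF (46% higher in bone). The median of the 9 members' log2FC values was 3.42 in WT and 3.21 in ZDF rats, against 0.10 and 0.21 over all miRNAs tested.

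Let-7c-5p differed most. In WT placebo bones it was at 4853, 23422, 7936 and 8082 CPM, and in WT placebo sera at 291, 443, 805, 222 and 808 CPM. Every bone was far above every serum, with a log2FC of 4.42 (SE 0.55), and of 4.53 (SE 0.39) in ZDF rats. Let-7a, b, e and f differed by log2FC 3.42 to 3.83 in WT and 3.21 to 4.33 in ZDF rats. Summed, the 5 near-identical members had log2 ratios of mean levels of 3.78 and 4.09. These sums do not depend on which of the 5 a read was given to. A read counted under several of them would still enter a sum repeatedly.

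Let-7g-5p differed least. Its WT placebo bones had 1723, 4462, 1531 and 1873 CPM and the WT sera 1427, 2061, 1916, 1463 and 1903 CPM. These values overlapped, and the log2FC was 0.45 (SE 0.39, FDR 0.312). In ZDF rats its log2FC was 0.57 (SE 0.36), which passed the threshold (FDR 0.159) although the values overlapped and the exact permutation p was 0.159. This call was lost with RLE size factors (FDR 0.207) and without serum replicate 1, 2, 3 or 5. Let-7i-5p had log2FC 0.97 (SE 0.34, FDR 0.0192) in WT and 1.96 (SE 0.33) in ZDF, miR-98-5p 1.28 (SE 0.40) and 2.70 (SE 0.37), and let-7d-5p 1.94 (SE 0.58) and 1.10 (SE 0.45). Bone and serum levels did not overlap for 8 of 9 members in each genotype, as was the case with the bone level higher for 29.3% of all miRNAs tested in WT and 36.1% in ZDF. Scaling to all reads in place of TMM raised the median of all miRNAs by 2.67 (WT) and 2.91 (ZDF) on the log2 scale. All 9 members were then called higher in bone in each genotype, let-7g included.

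**Figure D2:**
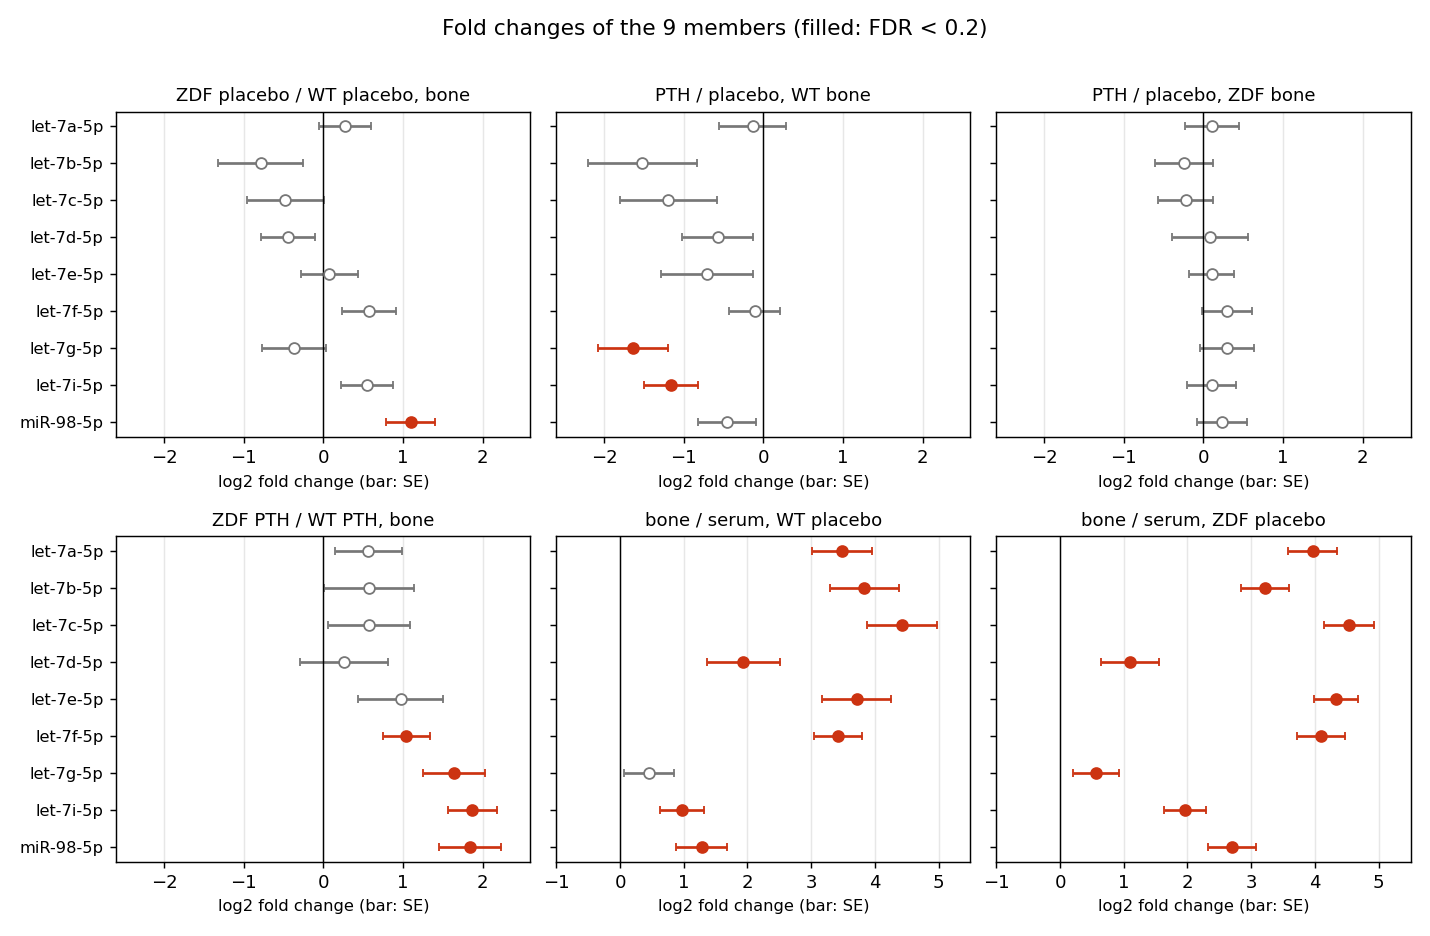
Log2 fold changes (horizontal axes, bars ± SE) of the 9 members in 6 comparisons, filled where FDR < 0.2. Let-7g and let-7i lie below 0 for PTH in WT bone, 4 members lie above 0 for ZDF PTH against WT PTH, and none is filled for PTH in ZDF bone.

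The genotypes were compared in bone in placebo-treated ZDF and WT ulnae, where diabetes and the leptin receptor mutation itself cannot be told apart. MiR-98-5p was upregulated in ZDF bone. Its levels were 2153, 1467, 1151 and 2594 CPM in ZDF and 831, 788, 817 and 931 CPM in WT placebo bones. The lowest ZDF bone lay above the highest WT bone, with log2FC 1.10 (SE 0.31, FDR 0.114), and the exact permutation p of 0.0286 is the smallest that 4 against 4 allows. It was the only one of 8 members tested to be called, where 17% of 135 miRNAs were called and 6.67% were higher, so 1 in 8 is close to the background. Of all miRNAs tested, 8.89% were higher with no overlap, and miR-98 was the only member with this pattern. Let-7d-5p fell out at the filter on low levels.

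The other members went in either direction, from −0.79 (SE 0.53) for let-7b-5p to 0.57 (SE 0.34) for let-7f-5p, and the median of the 9 members was 0.07 against −0.09 for all miRNAs. Let-7f shares its chromosome X cluster with miR-98 but has a second gene, and its placebo bones overlapped, at 14212, 20180, 15808 and 35920 CPM in ZDF and 13205, 18234, 11774 and 13040 CPM in WT rats. The family sum was 75022, 71149, 65664 and 129916 CPM in ZDF and 46790, 105254, 57978 and 62810 CPM in WT bones, which overlapped. Its log2 ratio of means was 0.32 by TMM and −0.13 when scaled to all reads, so it had no fixed direction.

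Markers of other cells moved in the same comparison. All 3 mesenchyme miRNAs were lower in ZDF placebo bone (log2FC −0.75 to −2.14), with summed levels of 13995 to 16644 CPM against 21946 to 43986 CPM in WT. Over the 16 bones miR-98 had a Pearson r of −0.665 with this sum (Spearman rho −0.726), a description over libraries that share their groups. Both cartilage miRNAs were lower too, miR-140-5p without overlap (1144 to 1278 CPM in ZDF, 1781 to 3184 CPM in WT). Of the 4 leukocyte and platelet miRNAs miR-142-5p (−1.15) and miR-150-5p (−1.03) were lower, and the sum of the 4 was 4213 to 5404 CPM in ZDF and 5556 to 8496 CPM in WT, without overlap. MiR-1-3p and miR-206-3p of muscle were higher (1.23 and 1.16). The other 2 of the 4 muscle miRNAs were not called and had lower medians in ZDF. These were miR-133a-3p (95937 against 180193 CPM) and miR-133b-3p (1247 against 2974 CPM). The muscle sums were 79058 to 430330 CPM in ZDF and 54905 to 404390 CPM in WT. With the muscle sum as a covariate miR-98 remained called (log2FC 1.06, FDR 0.0891). That sum is mostly miR-133a-3p, so the fit does not address miR-1-3p and miR-206-3p. The part of these 2 and of the mesenchyme, cartilage and leukocyte markers in the result was not tested. The call was lost when WT placebo replicate 2 or ZDF placebo replicate 1 or 4 was left out, where log2FC stayed within 0.85 to 1.24 over all 8 omissions. Scaled to all reads, miR-98 had log2FC 0.78 (FDR 0.974) and 0 of all miRNAs were called.

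In WT bone 2 members were lower under PTH than under placebo. Let-7i-5p, the most abundant member, was at 13770, 7149, 14279 and 14323 CPM in PTH-treated WT bones and at 22528, 36076, 26215 and 30384 CPM under placebo. No PTH-treated bone reached the lowest placebo bone, and the log2FC was −1.16 (SE 0.34, FDR 0.112). Let-7g-5p had 878, 629, 962 and 710 CPM under PTH and 1514, 5013, 1860 and 2100 CPM under placebo. Its values did not overlap either, with log2FC −1.64 (SE 0.44, FDR 0.112), and the exact permutation p was 0.0286 for each of the 2 members.

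Over all 179 miRNAs tested, 16.8% were called, 11.2% were lower under PTH, and 2.23% were lower without overlap. Among the 9 members, 2 were lower and both were without overlap. The 7 others had negative log2FC values that did not pass the test, from −0.11 (SE 0.32) for let-7f-5p to −1.52 (SE 0.68, FDR 0.248) for let-7b-5p. The median of the members was −0.71 against −0.08 over all miRNAs. The family sum was 31391, 21527, 46375 and 45784 CPM under PTH. Every PTH-treated WT bone lay below the lowest placebo bone (46790 CPM), the highest of them only narrowly. The log2 ratio of means was −0.91. As a share of miRNA reads the family held 1.97 to 5.71% under PTH (median 4.04%) and 5.12 to 11.4% under placebo (median 5.5%), which overlapped.

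The composition of the family also differed between these bones. Let-7f-5p, at 11515, 9113, 14706 and 14555 CPM under PTH, overlapped its placebo levels while let-7i did not. The 3 bones in which let-7f had more reads than let-7i were all of this group. The 5 near-identical members made up 50.5 to 65.9% of family reads under PTH and 46.4 to 59.8% under placebo, which overlapped.

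Depth and markers of other cells moved with this comparison. Mesenchyme miR-214-3p was lower under PTH (log2FC −1.85, FDR 0.124), while the mesenchyme sums overlapped (16696 to 28398 CPM under PTH, 21946 to 43986 CPM under placebo). Of the 4 leukocyte and platelet miRNAs 1 was lower, while their sums overlapped (3603 to 7167 CPM under PTH, 5556 to 8496 CPM under placebo). The part of these markers in the result was not tested. Without the 2 shallowest PTH-treated WT bones, let-7g (−1.76, FDR 0.171) and let-7i (−1.11, FDR 0.142) were still called, but let-7b moved to −0.98, let-7c to −0.64, let-7e to −0.12 and let-7a to 0.17. Let-7g lost its call when WT placebo replicate 2 or 3 was left out (log2FC −1.81 to −1.15 over 8 omissions), and let-7i was called in all 8 (−1.24 to −0.98). The muscle sums were 47594 to 70346 CPM under PTH and 54905 to 404390 CPM under placebo. The 4 muscle miRNAs did not move together, with 1 called higher under PTH and 1 lower. Medians were lower under PTH for miR-133a-3p (50775 against 180193 CPM) and miR-133b-3p (1355 against 2974 CPM). They were higher for miR-1-3p (1864 against 1465 CPM) and miR-206-3p (407 against 325 CPM). With the muscle sum, mostly miR-133a-3p, as a covariate the log2FC values were −1.74 for let-7g and −1.07 for let-7i. In that fit 0 of 222 miRNAs were called (FDR 0.988 for these members). Scaling to all reads lowered the median of all miRNAs by a further 1.19 and called 6 members lower, with a family log2 ratio of −2.02.

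**Figure D3:**
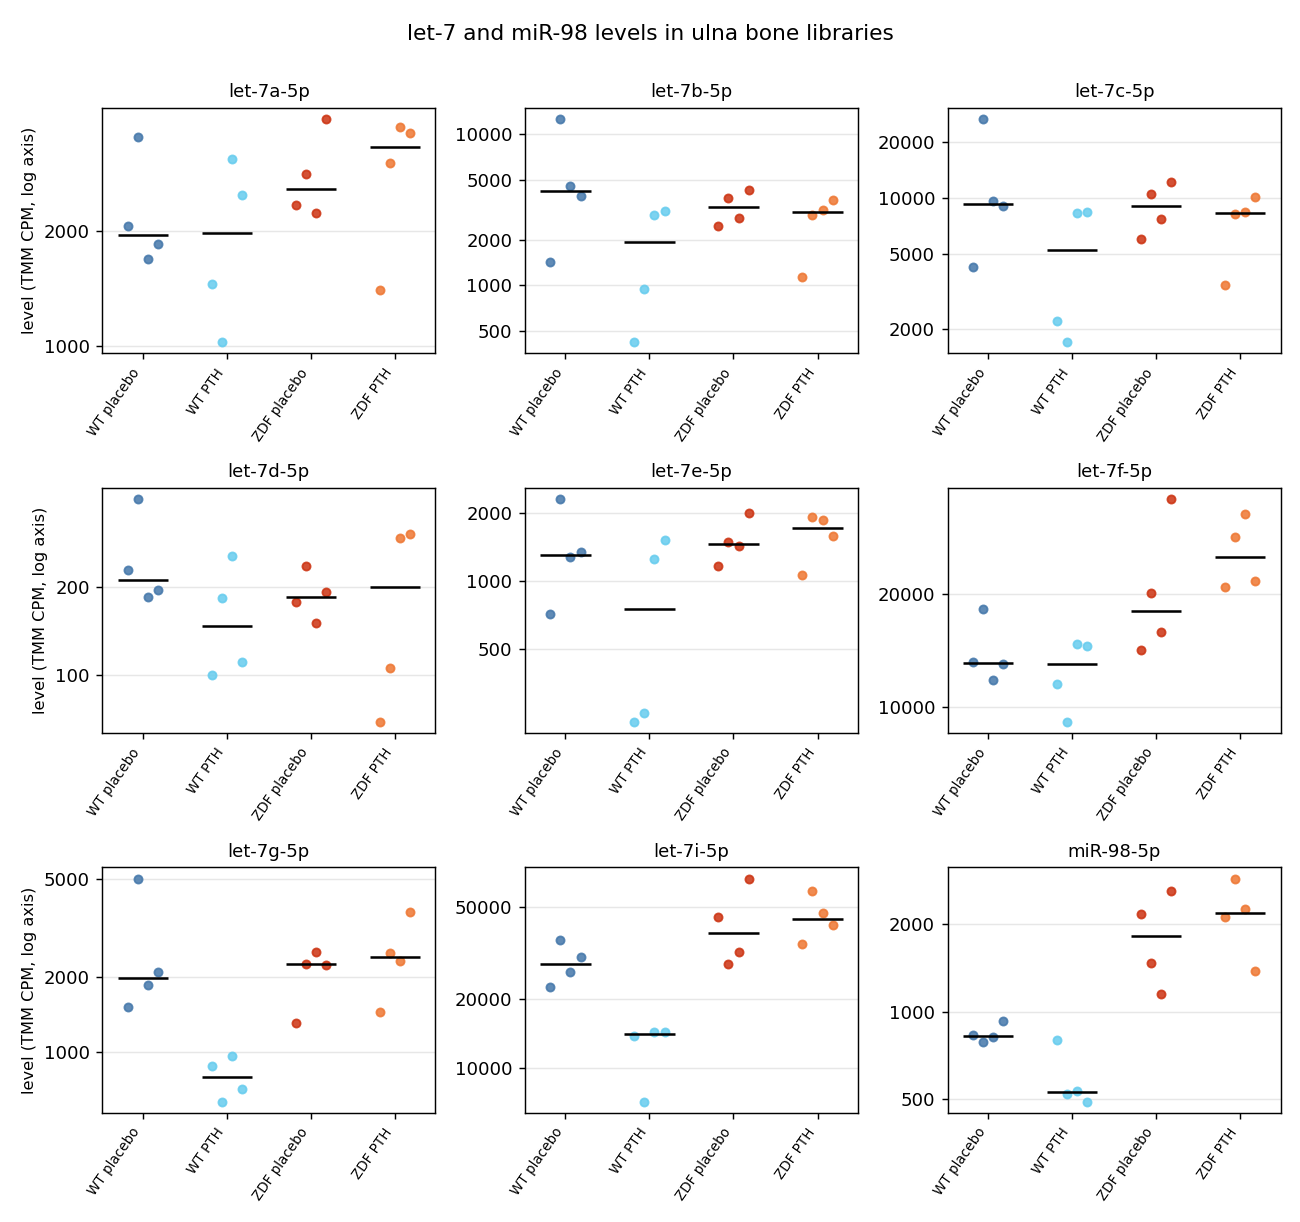
Level (TMM CPM, log axis) of each member in the 16 ulna libraries. Points are libraries and lines are medians of 4. Let-7g and let-7i in PTH-treated WT bones lie below all other groups' points, and miR-98 in both ZDF groups lies above both WT groups.

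In ZDF bone PTH changed no member at FDR < 0.2. Let-7i-5p had 34448, 58748, 46978 and 41887 CPM under PTH and 45129, 28414, 31839 and 66564 CPM under placebo. Let-7g-5p had 1445, 2513, 2326 and 3676 CPM under PTH and 1306, 2269, 2533 and 2237 CPM under placebo. The groups overlapped for all 9 members, whose log2FC values ran from −0.25 (SE 0.36) to 0.30 (SE 0.34) with a lowest FDR of 0.812. Over all 215 miRNAs tested edgeR called 0%, 13 had an unadjusted p under 0.05, and DESeq2 called 1, which was no member.

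The difference between genotypes in this response was tested by an interaction term over the 16 bones. Of the 74 miRNAs that passed its filter 1.35% were called, which was 1 miRNA, let-7g-5p (difference in log2FC, ZDF minus WT, 1.97, SE 0.58, FDR 0.192). That filter keeps the level cut that gives the most calls. Of the 243 miRNAs fitted before it, 13 had an unadjusted p under 0.05. Let-7i-5p had a difference of 1.3 (SE 0.48, FDR 0.308) and did not pass. All 9 differences were positive, from 0.23 for let-7a-5p, with a median of 0.81. Each uses the PTH-treated WT bones already described, so these are not separate evidence. Without the 2 shallowest of them let-7g had a difference of 2.04 (FDR 0.0902), and its call was lost when ZDF PTH replicate 2 or 3 was left out.

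Among PTH-treated rats, 4 members were higher in ZDF than in WT bone. Let-7i-5p was higher by log2FC 1.87 (SE 0.30, FDR 0.00457), let-7g-5p by 1.64 (SE 0.39, FDR 0.0325) and let-7f-5p by 1.04 (SE 0.29, FDR 0.0823). For let-7f the ZDF bones had 20866, 28427, 32644 and 21685 CPM, all above the WT bones given earlier. MiR-98-5p had 2103, 2858, 2248 and 1381 CPM in ZDF and 798, 524, 536 and 491 CPM in WT bones, again without overlap (log2FC 1.84, SE 0.39, FDR 0.0188). Each had the exact permutation p of 0.0286. The WT PTH bones are those of the comparison with placebo, so both results for let-7g and let-7i rest on the same low group.

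Of the 114 miRNAs tested, 7.89% were called, 5.26% were higher in ZDF, and 7.89% were higher without overlap. Of the 8 members tested 4 were called and 4 did not overlap, so these 4 were among the 6 miRNAs called higher. The members that were not called had positive values of 0.26 to 0.97, let-7d-5p included, and the median was 0.97 against 0.06 over all miRNAs. The family sum was 65984, 108707, 101696 and 87886 CPM in ZDF, each above every WT PTH bone, with a log2 ratio of means of 1.33. The 5 near-identical members had a ratio of 0.87.

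Without the 2 shallowest WT bones the same 4 members were called (0.83 to 2.05), while let-7b turned to −0.12 and let-7c to −0.13. Let-7f lost its call without ZDF PTH replicate 2 (FDR 0.529) or 3 (FDR 0.42), and without filterByExpr (FDR 0.22). The muscle sum, mostly miR-133a-3p, was 106700 to 181840 CPM in ZDF PTH and 47594 to 70346 CPM in WT PTH bones without overlap. This sum and genotype thus cannot be told apart here. Of the 4 muscle miRNAs 1 was called, higher in ZDF. MiR-133a-3p did not overlap (102132 to 176379 and 44839 to 66255 CPM). MiR-1-3p (medians 3814 and 1864 CPM), miR-206-3p (845 and 407 CPM) and miR-133b-3p (1372 and 1355 CPM) overlapped. Of the 3 mesenchyme miRNAs only miR-199a-5p was called, lower in ZDF (log2FC −0.97, FDR 0.164), at 6195 to 10830 CPM against 12518 to 18576 CPM in WT. The mesenchyme sums overlapped (12682 to 24748 and 16696 to 28398 CPM). Cartilage miR-140-5p did not overlap either (469 to 1248 and 1340 to 2449 CPM, FDR 0.28). Of the 4 leukocyte and platelet miRNAs only miR-142-3p was called, lower in ZDF (−1.52, FDR 0.117). MiR-150-5p of that list had a higher median in ZDF (1302 and 595 CPM), and the sums of the list overlapped (3662 to 5997 and 3603 to 7167 CPM). Of the 4 erythrocyte miRNAs 1 was called, higher in ZDF, but the list did not move together. Medians were lower in ZDF for miR-451-5p (3878 and 5733 CPM) and miR-144-3p (291 and 872 CPM). They were higher for miR-144-5p (864 and 427 CPM) and miR-486 (4212 and 2925 CPM). The erythrocyte sums overlapped (7701 to 10865 and 7971 to 14194 CPM). The part of these markers in the 4 calls was not tested. With the muscle sum as a covariate 0 of 214 miRNAs were called, and the members had values of 1.93 (let-7i), 2.85 (let-7g), 1.31 (let-7f) and 0.48 (miR-98).

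In serum the comparisons of groups depended on the scaling. In placebo-treated rats the family sum was 10689 to 21462 CPM in ZDF and 13029 to 19727 CPM in WT sera. Of the 7 members tested 0 were called, with 6.1% of 164 miRNAs called, and their log2FC values ran from −0.32 to 0.14 (lowest FDR 0.853). Scaled to all reads, the median of all miRNAs moved by −0.76 and 4 members were called lower, and scaled to the extraction spike-ins 2 were. The log2 ratio of the family sums was −0.08 with TMM, −0.88 with all reads and −1.17 with the spike-ins.

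With TMM, insulin was the 1 treatment after which a member was called in serum. Let-7i-5p was at 23998, 12514, 24803 and 11355 CPM in insulin-treated ZDF rats and at 9936, 10533, 11648, 15924 and 7382 CPM under placebo. The groups overlapped, with 2 insulin sera above all placebo sera and 2 within their range. The log2FC was 0.71 (SE 0.30, FDR 0.16) and the exact permutation p 0.111. The call was lost when scaled to all reads (0.41, FDR 0.578), with all groups in one fit (0.83, FDR 0.36), and in 4 of 9 fits that left out 1 serum (0.52 to 0.90 over the 9). In this comparison 26.5% of 151 miRNAs were called and 11.3% were higher, so 1 of 8 members tested is close to the background. The other 7 tested, from −0.54 (SE 0.32) for let-7f-5p to 0.55 (SE 0.75) for let-7d-5p, did not pass. The 5 near-identical members took 5.55 to 12.1% of family reads under insulin and 13.2 to 20.6% under placebo, which did not overlap. Their summed level had a log2 ratio of −0.19 while the family sum had 0.55, or 1.28 when scaled to the spike-ins.

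Erythrocyte miRNAs rose in the same sera. All 4 of the list (miR-451-5p, miR-144-3p, miR-144-5p and miR-486) were called higher, miR-451-5p by 2.33 (FDR 0.000315), and their summed level was 238765 to 375131 CPM under insulin and 89211 to 170993 CPM under placebo. The log2 of miR-451-5p reads over miR-23a-3p reads, a measure of hemolysis, was 3.18 to 3.79 under insulin and −0.49 to 1.41 under placebo. The highest ratio of all sera, 4.29, was that of ZDF PTH replicate 3, which also had the highest let-7i level, 33050 CPM. Over the 32 sera let-7i had a Pearson r of 0.494 with this ratio (Spearman rho 0.42), over the 28 without insulin 0.405 (rho 0.304), and the 5 near-identical members 0.047. With the ratio as a covariate the log2FC of let-7i for insulin was −0.0235 (FDR 0.993), and 0 of all miRNAs were called. The ratio did not overlap between the insulin and placebo sera, so hemolysis and insulin cannot be told apart here.

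**Figure D4:**
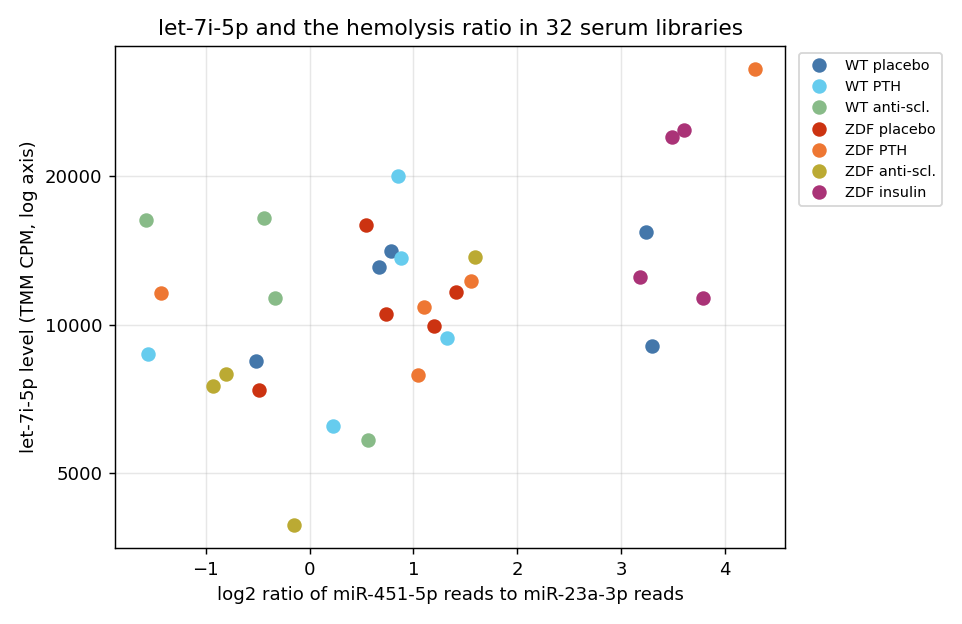
Let-7i-5p level (TMM CPM, log axis) against the log2 of miR-451-5p reads over miR-23a-3p reads in 32 sera, coloured by group. The 4 insulin sera lie at ratios of 3.18 to 3.79, and ZDF PTH replicate 3 lies at 4.29 and 33050 CPM.

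With TMM, no member was called in serum after anti-sclerostin or PTH at FDR < 0.2. After anti-sclerostin, 0 of 6 members tested were called in ZDF rats (5.38% of 130 miRNAs called, log2FC −0.82 to 0.95 over the members fitted) and 0 of 5 in WT rats (3.7% of 108, −0.90 to 0.47). After PTH, 0 of 7 members were called in ZDF (−0.60 to 0.59) and 0 of 7 in WT rats (−0.44 to 0.82). There edgeR called 0% of 154 and 0% of 170 miRNAs, with 4 and 2 at an unadjusted p under 0.05, and DESeq2 called 0 in each. Scaled to the extraction spike-ins, 88 miRNAs were higher after PTH in ZDF serum, 5 of them members (median member log2FC 2.18), and 27 were lower after anti-sclerostin in WT serum, 1 of them a member. Under PTH, ZDF and WT sera differed in 0 of 7 members and in 0% of 158 miRNAs (5 with p under 0.05, DESeq2 0), and under anti-sclerostin in 0 of 6 members and 0.855% of 117 miRNAs.

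The interaction terms in serum called 0% of 182 miRNAs for PTH and 0% of 189 for anti-sclerostin, with 8 and 4 at an unadjusted p under 0.05. Member differences ran from −1.68 (SE 1.2) for let-7d-5p to 0.94 (SE 0.67) for miR-98-5p in the response to PTH.

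**Figure D5:**
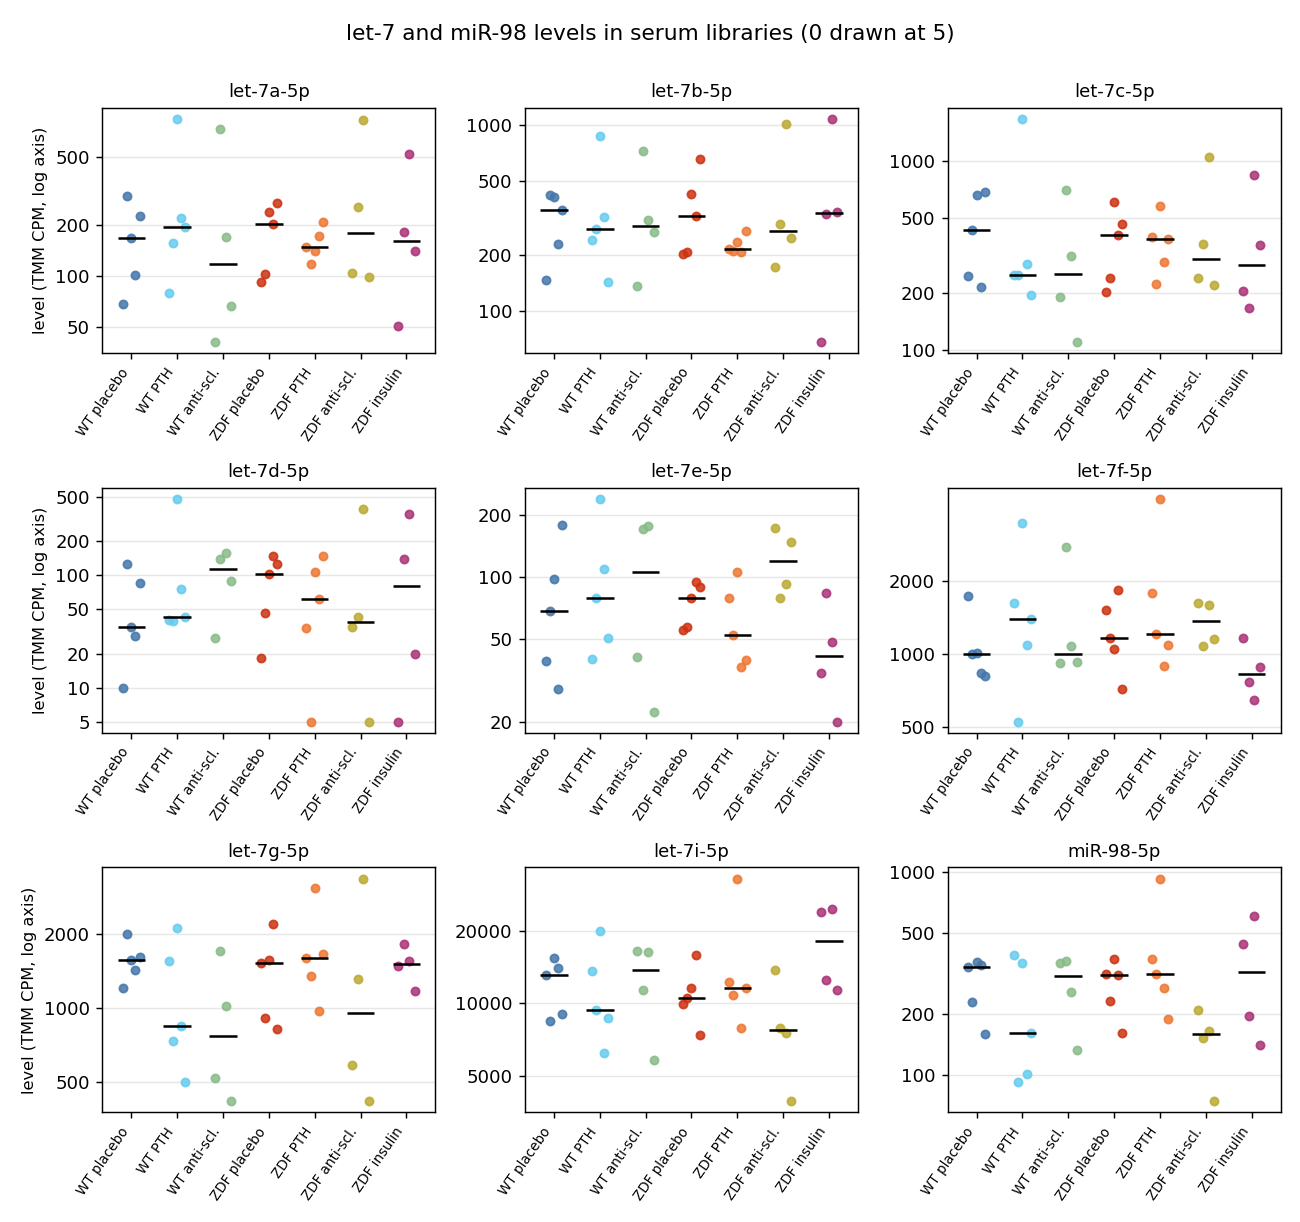
Level (TMM CPM, log axis, 0 drawn at 5) of each member in the 32 sera. Points are libraries and lines are medians of 4 or 5. The groups overlap for every member, and single libraries such as WT PTH replicate 3 and ZDF PTH replicate 3 lie far above their groups.

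Single sera set the upper ends of several groups. WT PTH replicate 3 had 836 CPM of let-7a-5p, 881 of let-7b-5p, 1672 of let-7c-5p and 478 of let-7d-5p, where the 4 other sera of its group had at most 219, 320, 286 and 75.8 CPM. ZDF PTH replicate 3 was high in other members, with 4383 CPM of let-7f-5p, 33050 of let-7i-5p and 931 of miR-98-5p against at most 1784, 12295 and 375 in its group. The 2 sera thus differed in which members were high.

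Members varied together more in bone than in serum. The Pearson r of log2 levels over the 36 pairs of members had a median of 0.618 over 16 bones (24 pairs above 0.5) and of 0.367 over 32 sera (11 pairs above 0.5). Let-7b and let-7c, which differ at 1 base and share a cluster, reached 0.959 in bone. Let-7i and miR-98, which differ at 4 bases and lie on different chromosomes, had r of 0.867 in bone and 0.845 in serum. These are descriptions, since libraries share groups and depth and the nearest members can share reads. Serum counts were also low, with a median of 5 reads for let-7d and 14 for let-7a, against 44 and 700 in bone. Counting error can lower r, and its part in the contrast between tissues was not tested.

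The miRNAs outside the family whose levels ran closest to the family sum in serum were miR-1839-5p (r = 0.767), miR-146b-5p (0.736), miR-19a-3p (0.685), miR-106b-3p (0.609) and miR-186-5p (0.595), of 189 compared over 32 sera. In bone they were miR-672-5p (0.850), miR-196b-5p (0.823), miR-339-3p (0.785), miR-652-3p (0.773) and miR-191a-3p (0.773), of 234 compared over 16 bones.

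The passenger (3p) strands, cut from the same precursors and usually degraded, were scarce. Let-7a-1-3p and let-7c-2-3p have the same sequence and cannot be separated. With this pair counted once, the listed 3p arms summed to 198 to 878 CPM in bone and 227 to 1263 CPM in serum, below the level of let-7i alone in every group. Those of let-7c-1 had 0 reads in 32 of 32 sera and 10 of 16 bones, and those of miR-98 in 31 of 32 sera and 3 of 16 bones. At most 3 of the 12 passed the filter in any comparison. The 2 arms of let-7d differed between tissues in opposite directions. The 3p arm was lower in bone (log2FC −2.31, SE 0.67 in WT and −3.22, SE 0.51 in ZDF) where the 5p arm was higher. Let-7d-3p was also the 1 passenger arm called outside the tissue comparisons, lower under insulin (−0.96, SE 0.39, FDR 0.146).

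The 5 miRNAs of the let-7a, let-7c and let-7e clusters (miR-99a, 99b, 100, 125a and 125b, 5p arms) are made from the same genomic neighbourhoods as some members. All 5 were higher in bone than in serum, by 1.06 (miR-99b-5p) to 4.71 (miR-125b-5p) in WT and 1.29 to 4.71 in ZDF placebo rats. In ZDF against WT placebo bone 2 were lower (miR-125a-5p −0.89, miR-125b-5p −1.33) and 3 did not pass. For PTH in WT bone 1 was lower (miR-125b-5p −1.32, FDR 0.133), and 0 of 5 were called between ZDF and WT bones under PTH, where 4 let-7 members were higher. In serum miR-100-5p was lower in ZDF than in WT placebo rats (−1.31, FDR 0.161), and miR-99a-5p (−0.81) and miR-125a-5p (−1.05) were lower under insulin.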

How the data were processed

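Small RNA libraries of 32 sera and 16 ulnae were analysed. The authors trimmed reads with cutadapt and used bowtie and miRDeep2 to map reads of 17 nt or more to Rnor 6.0 and then to rat miRBase (up to 1 mismatch). The deposited counts are whole reads per mature miRNA. The authors also deposited RPM (scaled to all reads of the library), used here for library totals and as an alternative scaling, and a score scaled to miRNA reads, not used here. The labels' processing notes name cutadapt, Bowtie and edgeR.

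Counts were tested in R 4.3.3 with edgeR 4.0.16 (quasi-likelihood test, legacy = TRUE, robust = FALSE), limma 3.58.1 and DESeq2 1.42.0 as an alternative. Only the groups compared entered a fit, after filterByExpr and TMM. Independent filtering by mean CPM followed, which tried 50 quantiles with 0.95 the highest and kept the quantile with the most calls. Calls were made at FDR < 0.2 over all miRNAs tested, in 14 pairwise comparisons and 3 interactions. Levels are TMM CPM over all libraries of a tissue, except bone against serum, where TMM was set over the 2 groups. Exact two-sided permutation tests used log2(CPM + 1), and their smallest p is 0.00794 (5 against 5 or 4) or 0.0286 (4 against 4). In 82 pairs of libraries of the same group chi-squared per degree of freedom was at least 12.7, so none was a duplicate.

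All 9 members are named, with full statistics where FDR < 0.2, and passenger arms, cluster partners and cell type markers formed the other lists. The members and lists were chosen with earlier results of these data known. The tests were tried on simulated data. Alternatives were the scaling, the filters, the tool, the threshold, robust = TRUE, all groups in one fit, the hemolysis ratio (pseudocount 0.5) and leaving out each library, and, chosen after seeing the data, leaving out the 2 shallowest PTH-treated WT bones and a muscle covariate.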

Additional observations from a re-analysis of the deposited data

Results flagged for a closer look

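Of 110 groups of values checked for a library far from the others (Dixon's criterion), 17 stood out. A single check flags about 1 in 20 by chance. The 110 checks were not independent, since the same library can be flagged for several members and for the family sum that holds them. The count of 17 is thus not compared with chance. Most were sera. WT PTH replicate 3 had high let-7a-5p (836 CPM, others 80.2 to 219), let-7b-5p (881, others 144 to 320), let-7c-5p (1672, others 195 to 286) and let-7d-5p (478, others 39.4 to 75.8). ZDF PTH replicate 3 had high let-7f-5p (4383, others 893 to 1784), let-7i-5p (33050, others 7926 to 12295), miR-98-5p (931, others 190 to 375) and family sum (42617, others 10837 to 16931). ZDF anti-sclerostin replicate 3 had high let-7b-5p (1017, others 173 to 293) and let-7d-5p (390, others 0 to 42.8). Let-7f-5p was high in WT anti-sclerostin replicate 2 (2764, others 919 to 1075) and in WT placebo replicate 1 (1736, others 813 to 1010). The family sum was low in WT anti-sclerostin replicate 4 (7871, others 18643 to 19799).

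In bone, let-7g-5p was high in WT placebo replicate 2 (5013 CPM, others 1514 to 2100), let-7i-5p was low in WT PTH replicate 2 (7149, others 13770 to 14323), which was the shallowest bone, miR-98-5p was high in WT PTH replicate 1 (798, others 491 to 536) and the family sum was high in ZDF placebo replicate 4 (129916, others 65664 to 75022).

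The interaction term for PTH in bone called let-7g-5p, as 1 of the 74 miRNAs left by a filter that keeps the cut with the most calls. The difference in log2FC, ZDF minus WT, was 1.97 (SE 0.58, FDR 0.192).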

How the results depend on the processing

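No paired analysis was possible because the labels' replicate numbers do not link animals across groups or tissues, although bone and serum came from the same rats in most cases. Of 198 member fold changes under settings other than leaving out a library, 182 kept direction and side of the threshold, 15 fell below it and 1 reversed. That was let-7i-5p for insulin, −0.0235 with the hemolysis ratio as a covariate. Most of the 198 came from the bone against serum calls (8 members in WT and 9 in ZDF rats). The total therefore says little about how steady the treatment and genotype calls were. Counts of members called moved by over 1.5 times as follows, and the cause was not tested. ZDF against WT placebo serum went from 0 to 4 (scaled to all reads) and 2 (spike-ins). Insulin went from 1 to 0 (all reads, FDR < 0.05, all groups in one fit, hemolysis ratio). With spike-ins, anti-sclerostin in WT serum went from 0 to 1 and PTH in ZDF serum from 0 to 5. ZDF against WT placebo bone went from 1 to 0 (all reads, FDR < 0.05). PTH in WT bone went from 2 to 6 (all reads), 4 (no filterByExpr), 1 (FDR < 0.05), 4 (all groups in one fit) and 0 (muscle covariate), and ZDF against WT PTH bone from 4 to 0 (muscle covariate). Leaving out 1 library at a time gave 0 to 1 calls for insulin (0 without placebo 1 or 5 or insulin 1 or 3) and for anti-sclerostin in ZDF serum (1 without anti-sclerostin 1). It gave 0 to 2 for ZDF against WT placebo bone (2 without WT placebo 1 or ZDF placebo 2), 1 to 4 for PTH in WT bone (4 without WT placebo 1 or PTH 4), 3 to 5 for ZDF against WT PTH bone and 0 to 2 for the bone interaction (2 without ZDF PTH 1, WT placebo 1, WT PTH 1 or ZDF placebo 4). The tissue comparisons gave 8 to 9. Serum depth limits let-7d and let-7e, at a median of 5 and 6 reads.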
